A study of Mus musculus with 7 samples.

Results

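The T cell receptor recognises antigen through its variable chains and signals through the CD3 chains that travel with it. The genes described here encode that signalling unit. Cd3d, Cd3e, Cd3g and Cd247 encode the invariant chains of the complex. Zap70 encodes the kinase that docks on them, Lat and Lcp2 (SLP-76) encode adaptors, and Prkcq encodes protein kinase C theta. They were taken by name, from a list of 9 genes, as all probe sets annotated to exactly 1 symbol on the list, and 14 of the 45037 probe sets on the array met this rule. These 14 covered 8 of the 18193 genes with a probe set of their own. No probe set with Lck as its single symbol was in the annotation used, and Lck is not analysed here.

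The CD3 chains carry tyrosine motifs that are phosphorylated when the receptor, or in immature thymocytes the pre-T cell receptor, is engaged. Zap70 binds these phosphorylated motifs and phosphorylates Lat and SLP-76, which together assemble the platform for calcium release and RAS signalling. Protein kinase C theta acts further along, where diacylglycerol leads to NF-kB. In the thymus this machinery reports first on a successful beta chain and later on the fit of the mature receptor.

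The arrays compared T-cell acute lymphoblastic leukemias of 2 kinds in C57Bl/6 mice, both sampled when the animals were terminally ill. The 3 ICN1 samples were bone marrow cells from leukemia driven by the active intracellular part of NOTCH1. The 4 TEL-JAK2 samples were thymus cells from leukemia driven by the TEL-JAK2 fusion, in which the kinase JAK2 is constitutively active. The labels give no age, no vector, promoter or transgene cassette, no sorting step and no healthy control, and do not say whether a sample came from 1 animal. Each genotype came from 1 tissue, so genotype and tissue cannot be told apart in any difference below.

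All arrays had medians between 5.44 and 5.5 on the log2 scale, and Pearson's r over all probe sets was 0.973 to 0.989 within the groups and 0.921 to 0.944 between them. Erythroid marker genes averaged 11.24 to 11.43 in ICN1 and 6.11 to 6.52 in TEL-JAK2, with 9 of 11 lower in TEL-JAK2. ICN1 replicates 1 and 2 stood apart in carrying both Xist (11.51 and 11.78) and the Y-linked Eif2s3y (8.93 and 9.41). ICN1 replicate 3 and TEL-JAK2 replicates 1 to 3 read 3.18 to 3.29 for Eif2s3y, and TEL-JAK2 replicate 4 read 10.23 with Xist at 5.19. The driver genes themselves were not called, Notch1 at -0.19 (adjusted p = 0.795) and Jak2 at 0.52 (adjusted p = 0.179) by limma, and whether their probe sets read the introduced transcripts was not tested.

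In the RefSeq annotation of GRCm38.p6, Zap70 lies at chr1:36761798-36782821, Cd247 at chr1:165779952-165871153, Prkcq at chr2:11171905-11301226, Lat at chr7:126363827-126369705 and Lcp2 at chr11:34046928-34092281. Cd3g (chr9:44969572-44980431) and Cd3d (chr9:44981769-44987052) lie head to head, and Cd3e (chr9:44998735-45009663) lies beyond Cd3d. The starts used for the promoter windows are 1355 bases apart for Cd3g and Cd3d, and 27825 bases apart for Cd3d and Cd3e. These starts can differ from the gene bounds given here. The windows of Cd3d, Cd3e and Lat therefore reach partly inside those bounds. The windows of Prkcq, Cd247 and the later starts of Zap70 lie wholly inside them. The 250 bases before such a start are shown for the 3 neighbours Cd3g, Cd3d and Cd3e because their transcripts were compared as 1 cluster. They are also shown for the adaptors Lat and Lcp2, which had larger differences than these neighbours. The window of Prkcq, whose difference was larger than that of Lat, is not printed. It held neither CACCTG nor TGGGAA on either strand, so the printed windows are not a sample of the members. The sequences are from RefSeq on GRCm38.p6, each 5′ to 3′ on the strand of its gene, and capitals mark the E-box CACCTG or its complement CAGGTG and the RBPJ core TGGGAA or its complement TTCCCA. RBPJ is the DNA-binding partner of NOTCH1, and E-boxes of this kind are bound by E proteins of early lymphocytes.
Cd3g, chr9:44980432-44980681, minus strand: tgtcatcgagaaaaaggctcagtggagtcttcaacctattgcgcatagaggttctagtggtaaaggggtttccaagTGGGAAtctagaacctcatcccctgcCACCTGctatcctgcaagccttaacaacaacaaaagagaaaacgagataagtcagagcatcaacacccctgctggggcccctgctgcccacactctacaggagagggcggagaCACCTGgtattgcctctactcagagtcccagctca
Cd3d, chr9:44981536-44981785, plus strand: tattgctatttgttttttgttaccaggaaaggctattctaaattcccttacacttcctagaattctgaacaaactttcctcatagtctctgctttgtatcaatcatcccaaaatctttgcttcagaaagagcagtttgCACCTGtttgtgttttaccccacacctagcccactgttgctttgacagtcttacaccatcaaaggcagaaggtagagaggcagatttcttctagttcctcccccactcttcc
Cd3e, chr9:45009612-45009861, minus strand: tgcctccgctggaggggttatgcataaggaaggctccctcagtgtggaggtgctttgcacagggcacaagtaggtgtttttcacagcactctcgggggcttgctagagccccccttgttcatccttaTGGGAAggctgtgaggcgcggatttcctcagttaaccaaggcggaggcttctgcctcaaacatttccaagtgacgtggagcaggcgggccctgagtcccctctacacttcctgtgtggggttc
Lat, chr7:126369569-126369818, minus strand: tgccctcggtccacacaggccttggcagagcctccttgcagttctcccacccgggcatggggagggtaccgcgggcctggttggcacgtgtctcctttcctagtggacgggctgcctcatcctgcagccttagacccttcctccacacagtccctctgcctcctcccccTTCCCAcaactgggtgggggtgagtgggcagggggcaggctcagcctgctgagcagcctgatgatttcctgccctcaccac
Lcp2, chr11:34046678-34046927, plus strand: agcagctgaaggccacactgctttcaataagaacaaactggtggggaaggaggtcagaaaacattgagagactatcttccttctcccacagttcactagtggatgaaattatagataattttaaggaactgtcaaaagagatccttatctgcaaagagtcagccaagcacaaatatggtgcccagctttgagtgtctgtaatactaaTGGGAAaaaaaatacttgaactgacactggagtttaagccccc

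The 8 genes had 10 such windows in the RefSeq table, 3 of them for alternative starts of Zap70. Searched on both strands, CACCTG occurred in 5 of the 10 windows, against 17.2% of all 32851 promoter windows of that length, and TGGGAA in 5, against 21.6%. The ETS core GGAAG was found in 8 windows (64.1% of all), the TCF/LEF core CTTTGA in 3 (13.8%), the RUNX core TGTGGT in 1 (14%) and the STAT core TTCNNNGAA in 1, that of Cd3d (7.02%). The TGGGAA of Cd3e, of Lat and of the first Zap70 start runs on into a GGAAG. These matches are letters in a window and were not tested as sites.

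Across the 14 probe sets, 11 were higher in TEL-JAK2, 0 were lower and 3 were not called by limma at an adjusted p under 0.05 over all 45037 probe sets. Among all probe sets 9.26% were called higher and 10.3% lower, and among the brighter 22519, where 13 of the 14 fall, 17% were called higher. The groups did not overlap in 13 of the 14, always with TEL-JAK2 above, against 16.2% of all probe sets. The count of 11 fell to 7 without ICN1 replicate 1, 2 or 3 or TEL-JAK2 replicate 2 or 3, and to 6 without TEL-JAK2 replicate 1. The median difference was 0.75 on the log2 scale, against 0.04 for all probe sets. By the brightest probe set of each gene, the differences were smallest for Cd3e and Cd3d and largest for Lcp2, Prkcq and Lat. With the probe sets of a gene averaged, Zap70 was smallest (0.37). The labels give no sorting step, and a larger share of T-lineage cells and more RNA per cell cannot be told apart here. The erythroid genes above were lower in TEL-JAK2, and their part in these differences was not tested.

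**Figure D1:**
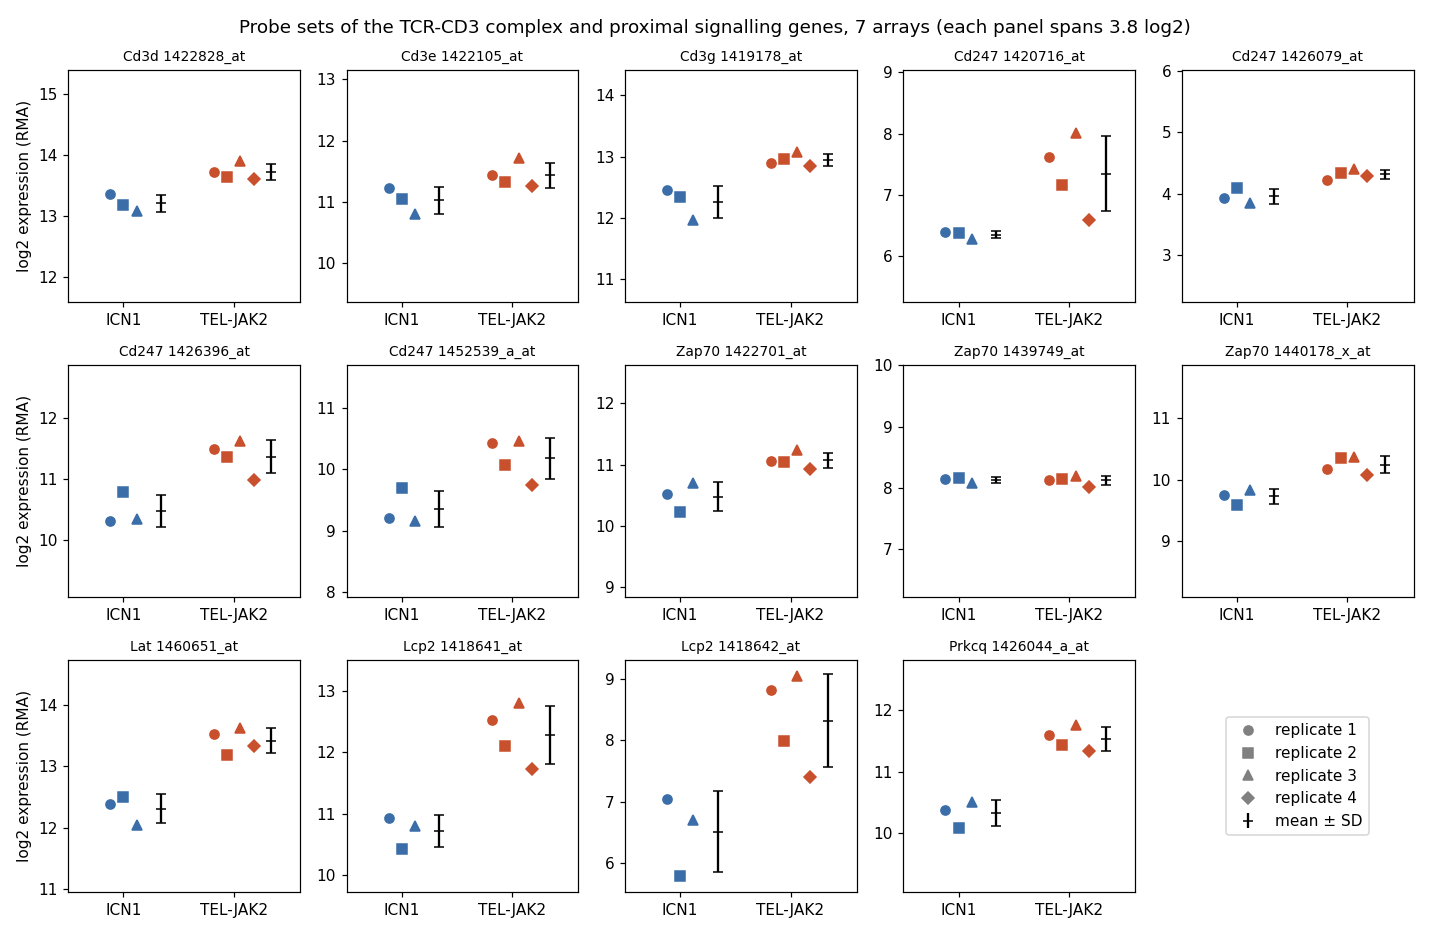
Log2 expression of each of the 14 probe sets (1 panel each, all panels of equal height) in the 3 ICN1 arrays (blue) and the 4 TEL-JAK2 arrays (red), with marker shape giving the replicate and the bar the mean ± SD. TEL-JAK2 values lie above all ICN1 values in 13 panels, and Zap70 1439749_at is flat near 8.1.

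Cd3d, which pairs with Cd3e in the receptor, read 13.35, 13.18 and 13.08 in ICN1 replicates 1 to 3 and 13.71, 13.63, 13.90 and 13.61 in TEL-JAK2 replicates 1 to 4. The groups were separate by 0.27 and the difference was 0.51 ± 0.11 (SE, adjusted p = 0.0179 by limma), a 1.43-fold change. This call is near the threshold. Leaving out TEL-JAK2 replicate 1, or ICN1 replicate 2 or 3, ended it (adjusted p from 0.0501 to 0.0536).

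Cd3g, the partner of Cd3e in the second heterodimer, read 12.46, 12.34 and 11.97 in ICN1 and 12.89, 12.96, 13.07 and 12.84 in TEL-JAK2. All 4 TEL-JAK2 arrays were above the ICN1 arrays, with a narrower spread (SD 0.10 against 0.26). The difference of 0.68 ± 0.14 (adjusted p = 0.0124 by limma) was called in each of the 7 fits without 1 array.

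Cd3e, the chain shared by both heterodimers, read 11.23, 11.04 and 10.80 in ICN1 and 11.43, 11.33, 11.72 and 11.26 in TEL-JAK2. The closest arrays of the groups were 0.03 apart. Its difference of 0.41 ± 0.15 was not called (adjusted p = 0.102 by limma), nor was it in any of the 7 fits without 1 array.

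Cd247, the zeta chain that holds most of the tyrosine motifs of the complex, had 4 probe sets. The brightest, 1426396_at, read 10.32, 10.79 and 10.35 in ICN1 and 11.49, 11.37, 11.62 and 10.99 in TEL-JAK2. The difference of 0.88 ± 0.18 (adjusted p = 0.0149 by limma) left a gap of 0.20 between the groups, with TEL-JAK2 replicate 4 and ICN1 replicate 2 nearest to each other, and it was lost without ICN1 replicate 1 (adjusted p = 0.0527). The second, 1452539_a_at, followed it closely at 0.82 ± 0.21 (adjusted p = 0.0339), with a gap of 0.05, and kept its call in 2 of the 7 fits that left out 1 array, those lacking TEL-JAK2 replicate 4 or ICN1 replicate 2 (adjusted p up to 0.103 in the other 5).

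The other probe sets of Cd247 were dimmer. Probe set 1420716_at read 6.28 to 6.39 in ICN1 and 7.62, 7.16, 8.01 and 6.59 in TEL-JAK2, so that nearly all of its spread (SD 0.61 against 0.06) lay in that group. The difference, 1.0 ± 0.31, missed the threshold (adjusted p = 0.0604 by limma) and passed it once TEL-JAK2 replicate 4 was left out (1.25, adjusted p = 0.00987). Probe set 1426079_at read 3.85 to 4.09 in ICN1 and 4.22 to 4.40 in TEL-JAK2, near the lowest values of the array, and its call (0.36 ± 0.10, adjusted p = 0.0404) survived the loss of ICN1 replicate 2 but of no other array (adjusted p from 0.0642 to 0.11).

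Zap70, the kinase recruited to the phosphorylated chains, had 3 probe sets that did not behave alike. Probe set 1422701_at read 10.51, 10.22 and 10.70 in ICN1 and 11.06, 11.04, 11.24 and 10.93 in TEL-JAK2 (0.59 ± 0.14, adjusted p = 0.0223 by limma). Probe set 1440178_x_at, of a type that may cross-hybridize, read 9.59 to 9.83 and 10.08 to 10.36 (0.51 ± 0.11, adjusted p = 0.0174). Both put every TEL-JAK2 array above every ICN1 array.

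Probe set 1439749_at read 8.08 to 8.16 in ICN1 and 8.02 to 8.20 in TEL-JAK2, and was the single one of the 14 with overlapping groups (-0.01 ± 0.09, adjusted p = 0.956). The within-array ratio of 1422701_at to this probe set rose by 0.60 from ICN1 to TEL-JAK2 without overlap. The 1422701_at call was kept only when ICN1 replicate 3 or TEL-JAK2 replicate 4 was the array left out (adjusted p from 0.052 to 0.0579 otherwise), and 1440178_x_at lost its call in 1 of the 7 such fits, that lacking ICN1 replicate 2 (adjusted p = 0.0571).

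Lat, the membrane adaptor phosphorylated by Zap70, read 12.38, 12.50 and 12.05 in ICN1 and 13.53, 13.18, 13.63 and 13.34 in TEL-JAK2. The groups were separate by 0.68. The difference was 1.11 ± 0.15, or 2.16-fold (adjusted p = 0.0028 by limma), and was called in each of the 7 fits without 1 array.

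Lcp2 encodes SLP-76, the cytosolic adaptor that joins the Lat platform. Its brighter probe set, 1418641_at, read 10.92, 10.42 and 10.80 in ICN1 and 12.53, 12.10, 12.80 and 11.72 in TEL-JAK2, with a gap of 0.80. The difference of 1.58 ± 0.26 (2.98-fold, adjusted p = 0.00609 by limma) was called in each of the 7 fits without 1 array.

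The dimmer probe set of Lcp2, 1418642_at, read 7.05, 5.78 and 6.70 in ICN1 and 8.83, 7.99, 9.05 and 7.41 in TEL-JAK2. It had a similar difference of 1.81 with a larger error of 0.46 (adjusted p = 0.0305), and, with 1 array left out, was called only if that was TEL-JAK2 replicate 4 or ICN1 replicate 1 (adjusted p from 0.0542 to 0.0901 in the other 5).

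Prkcq, the protein kinase C that couples the receptor to NF-kB, read 10.38, 10.08 and 10.50 in ICN1 and 11.60, 11.43, 11.77 and 11.34 in TEL-JAK2. It had the widest gap between groups of the 14 probe sets, 0.84. The difference of 1.22 ± 0.15 (2.32-fold) had the smallest adjusted p among them (0.0016 by limma) and was called in each of the 7 fits without 1 array.

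Within-array ratios compare the members with each other. With 1 probe set per gene, the ratios of 13 of 28 member pairs did not overlap between the groups, which is near the 40.4% found over all pairs of the 18193 genes, so the count is no result about the members. The pairs are given as a description. Relative to its ICN1 mean, the log2 ratio of Lcp2 to Cd3e lay between -0.30 and 0.30 in ICN1 and between 0.77 and 1.41 in TEL-JAK2. That of Prkcq to Zap70 lay between -0.05 and 0.03 and between 0.55 and 0.69. The ratios of Lat to Cd3d (difference 0.60) and to Cd3e (0.70) did not overlap either.

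Within the 3 genes of the chromosome 9 cluster, Cd3g rose by 0.17 relative to Cd3d and by 0.27 relative to Cd3e without overlap, whereas the ratio of Cd3d to Cd3e overlapped (difference 0.10). In the order of differences, Lcp2 (1.58), Prkcq (1.22), Lat (1.11), Cd247 (0.88), Cd3g (0.68), Zap70 (0.59), Cd3d (0.51) and Cd3e (0.41), each gene's ratio to the next one overlapped between the groups.

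Cyclic loess, renewed quantile normalization and median centring left 10 or 11 probe sets called, whereas centring on T-lineage genes lowered every difference. A set of 11 T-lineage genes outside the complex, among them Thy1, Cd2, Bcl11b and Coro1a, averaged 10.42 to 10.65 in ICN1 and 10.97 to 11.19 in TEL-JAK2, a mean difference of 0.50, with 5 higher, 1 lower (Cd5) and 5 not called. Centring each array on their mean shifted the median of all probe sets to -0.46 and left 3.69% of them higher and 55.2% lower, so that 6.26% of calls were higher in place of 47.2%.

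On this scale Lcp2 1418641_at (1.08, adjusted p = 0.0153 by limma), Lcp2 1418642_at (1.31, 0.0361), Prkcq (0.72, 0.0106) and Lat (0.62, 0.0342) were still called higher. The other 10 probe sets were not called higher: the CD3 chains read from -0.14 to 0.50, with Cd3d at 0.02, Cd3g at 0.19 and Cd3e turned to -0.08. Of Zap70, 1422701_at read 0.10 and 1440178_x_at 0.02, and 1439749_at was called lower (-0.51, adjusted p = 0.0199). The reference genes did not move as 1 block themselves (Cd7 2.37, Bcl11b 1.62, Cd5 -1.76), so this scale is a comparison with their mean and not a correction. Cd7 had the largest difference of the 11 but was not called (adjusted p = 0.0901 by limma). It raised the mean difference of the set, and the scale without Cd7 was not computed.

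**Figure D2:**
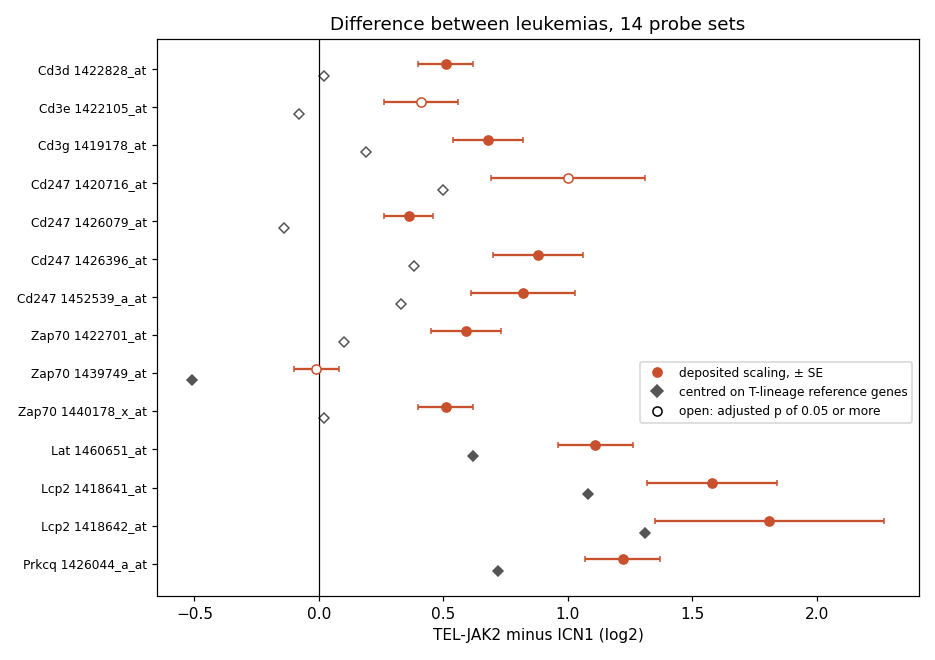
TEL-JAK2 minus ICN1 on the log2 scale for the 14 probe sets, with the deposited scaling (red circles, bars ± SE) and after centring each array on 11 T-lineage reference genes (grey diamonds). Filled symbols had an adjusted p under 0.05. After centring, Lat, Lcp2 and Prkcq stay to the right of 0 and the CD3 chains lie between -0.14 and 0.50.

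With ICN1 replicates 1 and 2 left out, which leaves 1 ICN1 array assumed to vary like the TEL-JAK2 arrays, 3 probe sets were called by limma: Cd3g (0.97, adjusted p = 0.0159), Lat (1.37, 0.0148) and Prkcq (1.04, 0.029). Lcp2 1418641_at (1.49, 0.074), Cd247 1426396_at (1.02, 0.0579), Cd3d (0.64, 0.0617) and Zap70 1422701_at (0.37, 0.224) were then not called. The differences of 12 of the 13 probe sets with a positive value therefore stayed at or above 0.41, and the exception was Zap70 1422701_at.

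The 4 TEL-JAK2 arrays differed from each other in the same order for most of these genes. Replicate 3 was the highest TEL-JAK2 array for 14 of 14 probe sets and replicate 4 the lowest for 12. The mean of the 8 genes deviated from the group's by 0.06, -0.09, 0.25 and -0.22 in TEL-JAK2 replicates 1 to 4. The range was widest for Lcp2, whose brighter probe set spanned 11.72 to 12.80. In ICN1 the mean was 11.44, 11.32 and 11.28 and no array was the highest for more than 6 of the 14.

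Several other markers ran against this order among the TEL-JAK2 arrays, and others did not. The 11 monocyte and macrophage genes averaged 7.14, 8.47, 6.39 and 8.66 in replicates 1 to 4, lowest where the members were highest, and the 8 NK and cytotoxic genes 7.26, 9.13, 6.89 and 8.68. The erythroid genes, at 6.24, 6.52, 6.14 and 6.11, and the B-lineage genes, at 7.96, 8.12, 7.12 and 6.96, were lowest in replicate 4, as most members were. The 11 reference T-lineage genes ran from 10.97 to 11.19 and were highest in replicate 4. That place rested on Cd7, which read 7.55, 9.26, 7.49 and 10.89 in replicates 1 to 4. The mean of the other reference genes was highest in replicate 3 and lowest in replicate 4, as for most members. Ptcra, the invariant chain of the pre-T cell receptor, read 8.01, 8.53, 7.22 and 9.73, and Cd5, an inhibitory receptor that tracks T cell receptor signal strength in thymocytes, 7.98, 8.90, 6.70 and 8.59. With 4 arrays these orders are a description, and the part of other cells in them was not tested.

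**Figure D3:**
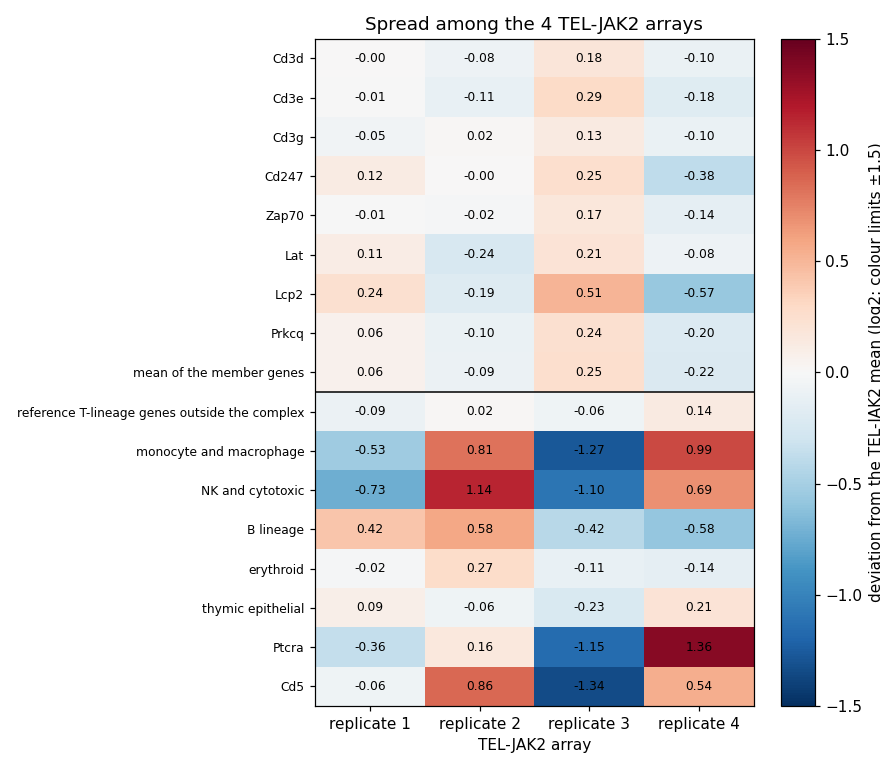
Deviation of each TEL-JAK2 array from the mean of the 4, in log2 units, for the 8 genes and their mean (above the line) and for marker lists and 2 further genes (below it). Replicate 3 is positive and replicate 4 negative for all 8 genes, while the macrophage list, Ptcra and Cd5 have the opposite signs in these arrays.

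Markers of other blood and stromal cells differed between the groups to unequal degrees. For the counts below, 11.9% of all 18193 genes were called higher and 12.2% lower. Monocyte and macrophage genes averaged 8.89 to 10.25 in ICN1 and 6.39 to 8.66 in TEL-JAK2 (5 of 11 lower), granulocyte genes 6.17 to 7.81 and 5.17 to 5.63 (5 of 11 lower), and megakaryocyte genes 6.65 to 8.47 and 5.57 to 5.78 (4 of 6 lower). With 1 array left out, the monocyte count fell to 1 without ICN1 replicate 1 or 2, to 2 without TEL-JAK2 replicate 1 and to 3 without TEL-JAK2 replicate 3. The granulocyte count fell to 2 without ICN1 replicate 1 or TEL-JAK2 replicate 1 or 2 and to 3 without TEL-JAK2 replicate 3. The megakaryocyte count fell to 1 without TEL-JAK2 replicate 1 and to 2 if ICN1 replicate 1 or TEL-JAK2 replicate 2 was omitted, while the erythroid count was 9 in each of these 7 fits. NK and cytotoxic genes, which activated T cells share, averaged 5.74 to 6.13 and 6.89 to 9.13, with 2 of 8 higher (Nkg7 and Gzma), while Ncr1, which defines NK cells, read 4.26 and 4.48. Without TEL-JAK2 replicate 3, 4 of the 8 were higher. B-lineage means overlapped, 6.43 to 7.96 in ICN1 and 6.96 to 8.12 in TEL-JAK2. There 2 of 11 were higher, Vpreb1 and Rag1, the latter used by T cell precursors too, which is little above the share of all genes. Thymic epithelial genes averaged 4.87 to 5.23 and 5.75 to 6.20, with 3 of 9 higher (Epcam, Aire and Foxn1). These means rest largely on Epcam, which read 4.78 in ICN1 and 10.92 in TEL-JAK2, and the median difference of the list was 0.33. Foxn1 read 4.52 and 4.85, and Psmb11 3.94 and 3.98. The calls of Nkg7, Gzma and Epcam held in each of the 7 fits that left out 1 array. Of the others, Vpreb1 lost its call without TEL-JAK2 replicate 3 or ICN1 replicate 1, Rag1 without those or ICN1 replicate 3 or TEL-JAK2 replicate 1 or 2, and Aire kept its call only without TEL-JAK2 replicate 3 or 4 and Foxn1 only without TEL-JAK2 replicate 2 (adjusted p up to 0.14). The part of these cells in the member differences was not tested.

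Ptcra was lower in TEL-JAK2, where the CD3 genes named above were higher or not called. Of 26 fixed symbols of receptor chain loci, 2 had a probe set with that single symbol, and both, Ptcra and Tcra, were called lower. Ptcra read 9.91, 11.45 and 11.31 in ICN1 and, with the TEL-JAK2 values above, differed by -2.52 ± 0.62 (adjusted p = 0.0246 by limma). It was no longer called when TEL-JAK2 replicate 1 or 2, or ICN1 replicate 2 or 3, was left out (adjusted p up to 0.0827), and it stayed lower on the T-lineage scale (-3.01, adjusted p = 0.00427). Tcra, at 3.83 and 3.33, was near the lowest values of the array in both groups (-0.50, adjusted p = 0.00737), and its probe set says little about the alpha chain.

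Around the members, 77 further genes of the pathway were measured, each represented by its brightest probe set, and 38 were higher and 8 lower by limma over 18193 genes, of which 11.9% were called higher and 12.2% lower. The 38 fell to 25 without TEL-JAK2 replicate 3, and the 8 to between 2 and 5 without any 1 array. With all 7 arrays and 1 probe set per gene, 7 of the 8 member genes were called, all but Cd3e. These lists were not chosen blind to the data and are given as counts.

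Of 13 coreceptors and other proximal kinases and phosphatases, 6 were higher and 1, Cd5, lower (median 0.36, against 0.04 for all genes). The TEC family kinases, which act on phospholipase C gamma, had the largest differences: Txk rose from 7.35 to 11.04 (3.68 ± 0.20, adjusted p = 4.06e-05 by limma) and Tec from 7.58 to 10.89 (3.31 ± 0.30, adjusted p = 0.000469). Cd2, an adhesion receptor, rose by 1.26 ± 0.14 (adjusted p = 0.00113). The coreceptor chain Cd8b1 rose by 1.77 ± 0.43 (adjusted p = 0.0237), a call lost without TEL-JAK2 replicates 1, 2 or 3 (adjusted p up to 0.0618).

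Syk, the relative of Zap70 used by B cells and early thymocytes, rose by 1.02 (adjusted p = 0.0339) and is named after its value was seen. It kept its call only without TEL-JAK2 replicate 4 or ICN1 replicate 2 (adjusted p up to 0.105). The coreceptor Cd4 (0.29, adjusted p = 0.748) and the kinase Fyn (0.36, adjusted p = 0.45) were not called. Fyn was called when ICN1 replicate 3 was left out (0.78, adjusted p = 0.00607) and read 0.09 when ICN1 replicate 1 was. Cd5 fell by 1.76 (adjusted p = 0.0375), a call lost without any 1 of the ICN1 arrays or TEL-JAK2 replicate 1 (adjusted p up to 0.109). The 6 higher calls fell to 3 without any 1 of TEL-JAK2 replicates 1, 2 or 3.

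Among 20 other adaptors of the signalosome, 13 were higher and 1 lower, with a median of 0.90. Themis, an adaptor of developing thymocytes, rose by 1.41 ± 0.15 (adjusted p = 0.000854 by limma). Skap1, which links the receptor to integrins, rose by 1.76 ± 0.20 (adjusted p = 0.00102), Sh2d2a by 1.32 (0.00266) and Pag1, the membrane adaptor that recruits the inhibitory kinase Csk, by 1.55 (0.0046). Grb2 (0.38, adjusted p = 0.333) and Skap2 (0.43, adjusted p = 0.644) were not called, and a further probe set of Grb2 read -0.22. Shb was the lower one (-0.74, adjusted p = 0.0315), a call kept only when ICN1 replicate 3 was the array left out (adjusted p up to 0.101). With ICN1 replicates 1 and 2 both left out, 5 adaptors were higher.

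Of 22 calcium, diacylglycerol and NF-kB effectors, 10 were higher and 1 lower, with a median of 0.63. Prkca, a classical protein kinase C, rose from 7.91 to 10.85 (2.94 ± 0.11, adjusted p = 7.98e-06 by limma), with all 3 of its probe sets higher. Plcg1, the phospholipase activated on the Lat platform, rose by 1.0 ± 0.09 (adjusted p = 0.000473), although 2 dim probe sets near 5.3 were not called. The calcium channel gene Itpr3 rose by 1.26 (adjusted p = 0.00151) and the calcium sensor Stim2 by 1.27 (adjusted p = 0.00538).

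Traf6 (0.14, adjusted p = 0.676) and Map3k7 (0.09, adjusted p = 0.668) were not called, though 1 dim probe set of Traf6 was higher (0.77, adjusted p = 0.0205 over all probe sets). Sos2 was the lower one (-1.29, adjusted p = 0.0459), a call kept only when TEL-JAK2 replicate 4 was the array left out (adjusted p up to 0.128). With ICN1 replicates 1 and 2 both left out, 5 of these effectors were higher.

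Of 20 inhibitors of the same pathway, 9 were higher, 3 lower and 8 not called (median 0.74). Sla2, an adaptor that limits surface receptor, rose by 2.10 ± 0.19 (adjusted p = 0.000459 by limma) and its relative Sla by 1.03 (adjusted p = 0.00764). Rasal3, a RAS GTPase activator, rose by 1.62 (adjusted p = 0.00113) and the lipid phosphatase Inpp5d (SHIP1) by 1.30 (adjusted p = 0.00133). The phosphatase Ptpn6 (SHP-1; 0.22, adjusted p = 0.502) and Rasa2 (-0.18, adjusted p = 0.628) were not called.

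The lower inhibitors were Spred1 (-1.64, adjusted p = 0.019), whose call needed replicate 1 of both groups (adjusted p up to 0.059), Ptpn12 (-0.91, 0.0385) and Ptpn11 (-0.39, 0.0359). Ptpn12 kept its call only when ICN1 replicate 2 was left out, and Ptpn11 only when TEL-JAK2 replicate 2 was (adjusted p up to 0.111 and 0.101). In the fit over all probe sets, 5 of 8 probe sets of Spred1, 3 of 4 of Ptpn12 and 1 of 3 of Ptpn11 were called lower. Without TEL-JAK2 replicate 3, 5 inhibitors were higher. On the T-lineage scale 3 inhibitors were higher and 5 lower, against 8 and 2 of the adaptors, 4 and 3 of the coreceptors and kinases, and 5 and 1 of the effectors. Cd2, Cd5 and Cd6 belong to both the coreceptor list and the reference genes. On this scale Cd2 was called higher (0.76) and Cd5 (-2.26) and Cd6 (-1.14) lower, so these calls are not independent of the scale.

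**Figure D4:**
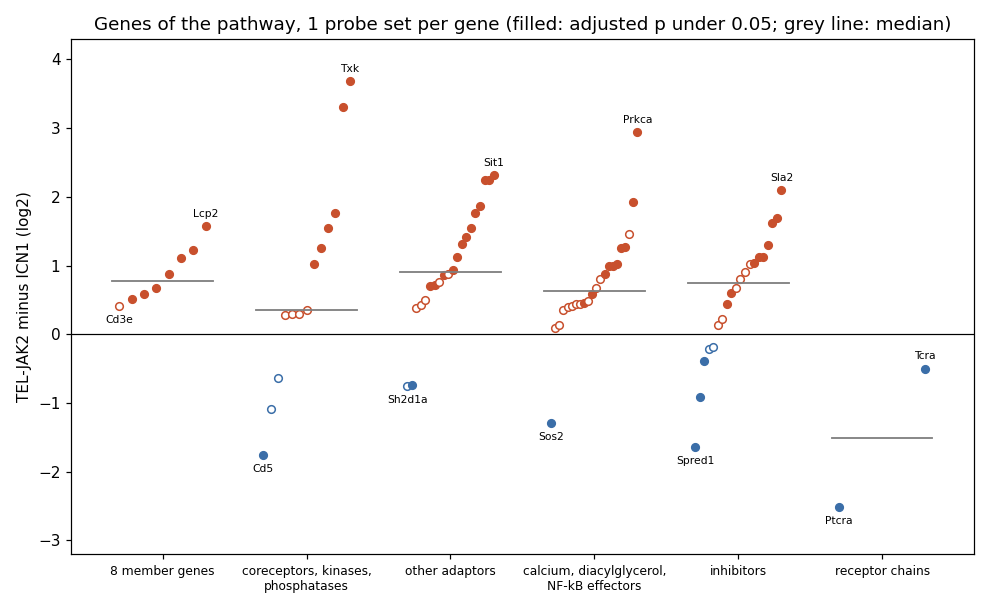
TEL-JAK2 minus ICN1 on the log2 scale, with 1 probe set per gene, for the 8 member genes and the 5 pathway lists (77 further genes). Filled points had an adjusted p under 0.05, grey lines are medians, and the highest and lowest gene of each list are named. Adaptors, effectors and inhibitors lie mostly above 0, and Ptcra at -2.52 is the lowest.

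Across the 7 arrays, profiles of other genes came close to those of single members, by the root mean square difference after subtracting each gene's own mean over the arrays. The nearest to Prkcq were Fli1, an ETS transcription factor of blood cells, and Pnrc1, each 0.07 away, against a range of 1.70 for Prkcq itself. Zap70 was nearest to Stx18 (0.03) and Mplkip (0.06), Cd3g to Tbck (0.04) and Nit1 (0.07), and Cd3d to Zfp759 (0.04) and 1700008O03Rik (0.05). Cd3e was 0.07 from both Epc2 and Rbfox3. Cd247 lay nearest to Mob3b (0.06) and 4732440D04Rik (0.10), Lat to Rtf2 (0.10) and Fbxl20 (0.11), and Lcp2 to Zfp385a and Tax1bp3 (0.11 each). Each is the closest found among all non-member genes over only 7 arrays, and how close such neighbours usually come was not computed. Some were dim, among them 4732440D04Rik (3.44 to 4.77) and 1700008O03Rik (4.48 to 5.23). Among the members, Cd3d and Cd3e were the closest pair, 0.08 apart.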

How the data were processed

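The values are log2 expression as deposited by the authors in 1 table, with 45037 probe sets and 7 arrays (3 ICN1, 4 TEL-JAK2), made with RMA per the submitters' processing notes. No source used here gives the RMA settings, and its normalization across arrays removes differences in total RNA. No sample column was left unused. Probe sets were named by the platform annotation (34945 with 1 symbol, 932 with several, 9160 with none), with 34741 matched to RefSeq GRCm38.p6 by gene ID and 0 symbols updated.

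TEL-JAK2 minus ICN1 was fitted two-sided by lmFit and eBayes of limma 3.58.1 (R 4.3.3) on all probe sets, and for gene lists on 18193 genes, each represented by its brightest probe set. Calls are at a Benjamini-Hochberg adjusted p under 0.05. Replicate numbers follow accession order, and sample titles carry different identifiers but do not state that these are animals. The p-values therefore set each difference against the spread among samples, which need not be independent animals. The number of arrays limits the precision. Members and lists were chosen with earlier results of these data known. Genes were named by rule: all member probe sets, up to 4 called genes with the smallest and 2 with the largest adjusted p per pathway list, the 2 nearest profiles per member, Notch1, Jak2, and the members of counts of 5 or fewer. The T-lineage reference genes, the Xist and Y-linked values, and other list genes given as examples were named beside these. On simulated arrays of 45037 probe sets, 46 of 100 changes of 1 log2 and 78 of 100 of 2 log2 were recovered, with 3 false calls. The simulation changed far fewer probe sets than were called here and drew noise independently for each. Its rates therefore need not hold for this comparison. Alternatives were other scalings, filters, variance models, thresholds, probe set summaries and left-out arrays. Figures were drawn with matplotlib 3.10.9.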

Additional observations from a re-analysis of the deposited data

How the results depend on the processing

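Of the 14 probe sets of the 8 genes, 11 were called higher with the deposited scaling, 10 to 12 with cyclic loess, renewed quantile normalization, median centring, a variance trend or array weights, 4 with T-lineage reference centring, 3 at an adjusted p under 0.01, 1 (Prkcq) in the test against a 1.5-fold difference, and 6 to 11 without any 1 array, the lowest without TEL-JAK2 replicate 1. With ICN1 replicates 1 and 2 both left out 3 were called. With 1 probe set per gene, or all probe sets of a gene averaged, 7 of 8 genes were called. None was lower except 1 with T-lineage reference centring. Without any 1 array the counts were 0 lower for the members, 2801 to 4170 higher and 3374 to 4393 lower for all probe sets, 25 to 37 higher and 2 to 5 lower for the pathway lists, and 3 to 7 higher and 14 to 27 lower for the other cell type lists.

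All probe sets, 4172 higher and 4660 lower, gave 1661 and 24878 with T-lineage reference centring, 1812 and 2340 at 0.01, 889 and 1307 against 1.5-fold, and 2286 higher without ICN1 replicates 1 and 2. The pathway lists, 38 higher and 8 lower, gave 20 and 13, 19 and 1, 16 and 0, and 21 and 4 under the same settings. The other cell type lists, 7 higher and 23 lower, gave 4 and 38, 3 and 13, 3 and 13, and 3 and 13. T-lineage reference centring by construction lowers every difference by the same amount. Elsewhere the cause was not tested.

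T-lineage reference centring turned Cd3e (-0.08) and Cd247 1426079_at (-0.14), the otherwise higher Foxn1 (-0.16), Ptpn2 (-0.06) and Ikbkg (-0.04), and the uncalled Cd4 (-0.21), Fyn (-0.13), Skap2 (-0.06), Grb2 (-0.12), Traf6 (-0.35), Map3k7 (-0.41) and Ptpn6 (-0.27). Without ICN1 replicates 1 and 2, Fyn read -0.47, Ptpn6 -0.10, Cd4 -0.00 and Zap70 1439749_at 0.03. That probe set, near 0 throughout, read 0.02 with quantile normalization applied again. Without any 1 array the ranges that crossed 0 were -0.04 to 0.02 for this probe set, -0.03 to 0.72 for Cd4, -0.12 to 0.33 for Traf6 and -0.34 to 0.09 for Rasa2. No paired analysis was possible because the labels give no replicate numbers shared by the groups.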
